A study of Homo sapiens with 12 samples.

Results

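The 7 features described here were taken from 24 whose counts were called higher in 2 successive steps over the study's 3 groups, of 60675 features listed and 14911 with enough reads to be tested. They are TECPR1, ENSG00000272009, ENSG00000267009, ARSG, IFNGR2, EML2 and RNF123, and all passed the filter on low counts. They were chosen by their counts in these libraries, which rose with cyclopiazonic acid (CPA) and rose again when synta-66 was given with CPA, so the rises are given as a description and carry no test. The first step below is CPA against untreated cells and the second is CPA with synta-66 against CPA alone. All but EML2 lie on the strand opposite an exon of a protein-coding gene. TECPR1 lies opposite BHLHA15, ENSG00000272009 opposite ZNF165, ENSG00000267009 opposite WIPI1, ARSG opposite WIPI1 and SLC16A6, IFNGR2 opposite TMEM50B, and RNF123 opposite GMPPB and AMIGO3. EML2 has no coding gene opposite it and overlaps the noncoding EML2-AS1. Each strand has a count of its own, but which gene the reads at a feature come from was not settled. The values below are given under the names of the features and are not taken as measurements of BHLHA15, ZNF165, WIPI1 or TMEM50B. The labels say that reads were counted as stranded but name no library kit, so whether the setting fits the kit was not tested. With a stranded kit and the reverse setting, the reads at a feature would be those of the gene opposite it, and this limit holds for each value below that is given for a gene at its own feature or at the opposite one.

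HSC-3 cells, an established line from a human tongue carcinoma, gave the RNA, and each of 3 groups had 4 libraries. One group received 25 µM CPA together with the ORAI channel inhibitor synta-66 for 3 hours, the next received 25 µM CPA for 3 hours, and the last was untreated. No synta-66 dose is stated in the labels, and cells given synta-66 alone were not analysed here. Whether the 4 libraries of a group stand for separate cultures is not stated in the labels, so the spread between them, and any p-value built on it, may be technical.

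By blocking the SERCA calcium pump, CPA empties the calcium stores of the endoplasmic reticulum, and store depletion opens ORAI channels in the plasma membrane. Loss of calcium from the endoplasmic reticulum disturbs protein folding there and sets off the unfolded protein response, which runs through the sensors IRE1, PERK and ATF6. IRE1 splices the mRNA of the transcription factor XBP1, PERK raises the transcription factors ATF4 and CHOP, and ATF6 is cut to release a transcription factor. Their targets include chaperones, degradation factors, amino acid transporters and autophagy genes.

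Gene reads numbered 2819486 to 5458858 per library, over 12 libraries, and were 3.58% to 9.4% of their uniquely aligned reads. Features that lie opposite coding exons took 63.8% of gene reads in all, between 28.6% and 81.0% by library. Of 12 keratinocyte markers, KRT8 (which lies opposite KRT18) had 19476 to 39587 reads per library, and the others were far lower, with 107 to 199 reads for KRT18, 35 to 128 for KRT5 and 10 to 50 for KRT14. EPCAM had 0 to 14, CDH1 0 to 13 and TP63 0 to 6 reads per library at their own features. At the feature opposite, CDH1 had 354 to 921 reads and KRT13 10 to 37. Summed fibroblast, immune and endothelial markers at their own features stayed at or under 9.20 CPM (counts scaled to the size of each library) in every library. The sole fibroblast marker read at an opposite feature, FAP, had 5.90 to 15.8 CPM there. Of the 12 libraries, 3 had more than 2 non-unique alignments per uniquely aligned read, namely replicates 1 and 4 with CPA and synta-66 and untreated replicate 3. The share of gene reads from mitochondrial ribosomal RNA was 27.6% ± 27.6 with CPA and synta-66, 3.22% ± 4.22 with CPA and 16.1% ± 16.5 in untreated cells (SD, n = 4 each). Without those 3 libraries the rises of the 7 features spanned 0.74 to 2.07 on the log2 scale in the second step and 0.70 to 2.10 in the first.

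The promoters of the genes opposite the features show which DNA letters lie at the start of the genes named with these rises. A table of RefSeq promoters on GRCh38.p14, each holding 250 bases before and 50 bases after the start of a gene, matched 4 of the 7 opposite coding genes. These were BHLHA15 at chr7:98211189-98211488 on the plus strand, WIPI1 at chr17:68457447-68457746 on the minus strand, GMPPB at chr3:49723902-49724201 on the minus strand and AMIGO3 at chr3:49719635-49719934 on the minus strand. The other 3 are ZNF165, SLC16A6 and TMEM50B. Capitals mark the letters GACGTG, the core of a site bound by XBP1, in BHLHA15 and the letters CCAAT, or ATTGG where the match is on the other strand, in the other promoters.
BHLHA15: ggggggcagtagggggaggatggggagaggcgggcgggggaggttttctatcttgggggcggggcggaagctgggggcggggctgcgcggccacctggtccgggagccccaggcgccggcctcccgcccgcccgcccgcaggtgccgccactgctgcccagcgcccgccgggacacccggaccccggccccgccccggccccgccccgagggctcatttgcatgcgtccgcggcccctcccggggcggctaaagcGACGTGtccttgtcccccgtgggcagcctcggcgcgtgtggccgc
WIPI1: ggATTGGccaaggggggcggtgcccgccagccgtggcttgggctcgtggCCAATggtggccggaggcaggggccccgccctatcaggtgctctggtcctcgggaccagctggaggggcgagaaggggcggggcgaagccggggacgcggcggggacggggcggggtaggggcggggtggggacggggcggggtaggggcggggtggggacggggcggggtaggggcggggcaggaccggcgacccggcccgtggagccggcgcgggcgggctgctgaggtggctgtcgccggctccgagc
GMPPB: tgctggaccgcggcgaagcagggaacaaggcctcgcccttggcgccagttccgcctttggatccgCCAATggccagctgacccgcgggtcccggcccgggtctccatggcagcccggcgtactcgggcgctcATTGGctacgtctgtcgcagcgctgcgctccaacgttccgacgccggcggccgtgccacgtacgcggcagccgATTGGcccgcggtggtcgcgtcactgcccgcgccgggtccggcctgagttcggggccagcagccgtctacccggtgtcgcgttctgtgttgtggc
AMIGO3: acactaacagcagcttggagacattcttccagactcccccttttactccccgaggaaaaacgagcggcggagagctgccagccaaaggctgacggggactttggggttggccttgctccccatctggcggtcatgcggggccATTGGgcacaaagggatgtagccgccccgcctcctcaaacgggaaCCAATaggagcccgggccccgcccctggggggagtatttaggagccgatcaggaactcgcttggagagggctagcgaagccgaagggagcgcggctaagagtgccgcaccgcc

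Both strands of each promoter were searched for 5 motifs, which were chosen after the sequences had been seen. GACGTG occurred once in the BHLHA15 promoter, with its first base 5 bases after the start, and is found in 7.81% of all 35116 promoters of the table. CCAAT, the letters bound by NF-Y, began at positions -248 and -201 from the start of WIPI1. In GMPPB it began at positions -185, -118 and -45, and in AMIGO3 at -108 and -63. CCAAT is found in 34.6% of all promoters. The letters CACGTG (7.26% of all promoters) and TGATGNAAT (0.991%), and the endoplasmic reticulum stress element (0.0769%), in which CCAAT and CCACG stand at a fixed distance, were not found in these 4 windows. GACGTG and CACGTG share letters but no match overlapped another, and a match describes the sequence and is not a bound site.

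Where the strands overlap differs between the 5 loci that have a coding gene opposite, on GRCh38 with the GENCODE 44 annotation. TECPR1 runs from chr7:98214624-98252232 on the minus strand and overlaps BHLHA15 over 834 bases, in the 3′ UTR of both genes, which is 9.22% of its exonic bases. ENSG00000272009, a long noncoding RNA at chr6:28078792-28081130 on the minus strand, overlaps ZNF165 over 505 bases of its 5′ UTR, or 73.6% of the exonic bases of the noncoding gene. ARSG at chr17:68259182-68422731 on the plus strand overlaps WIPI1 over 829 bases in its own 3′ UTR and SLC16A6 over 144 coding bases of that gene.

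The remaining overlaps were either small or spread over several exons. ENSG00000267009, a long noncoding RNA on the same strand as ARSG at chr17:68413623-68524949, overlaps 127 exonic bases of WIPI1 that are not coding. This is 6.82% of the exonic bases of ENSG00000267009. IFNGR2 at chr21:33403413-33479348 on the plus strand overlaps TMEM50B over 380 bases in 3 places, the longest of 181 bases at the 5′ end of TMEM50B. RNF123 at chr3:49689538-49721529 on the plus strand overlaps GMPPB over 1166 bases in 5 places of the GMPPB 3′ UTR, of which 372 bases are shared with coding bases of AMIGO3. EML2 at chr19:45606994-45645602 on the minus strand overlaps EML2-AS1 over 1173 bases, 14.4% of its exonic bases.

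**Figure D1:**
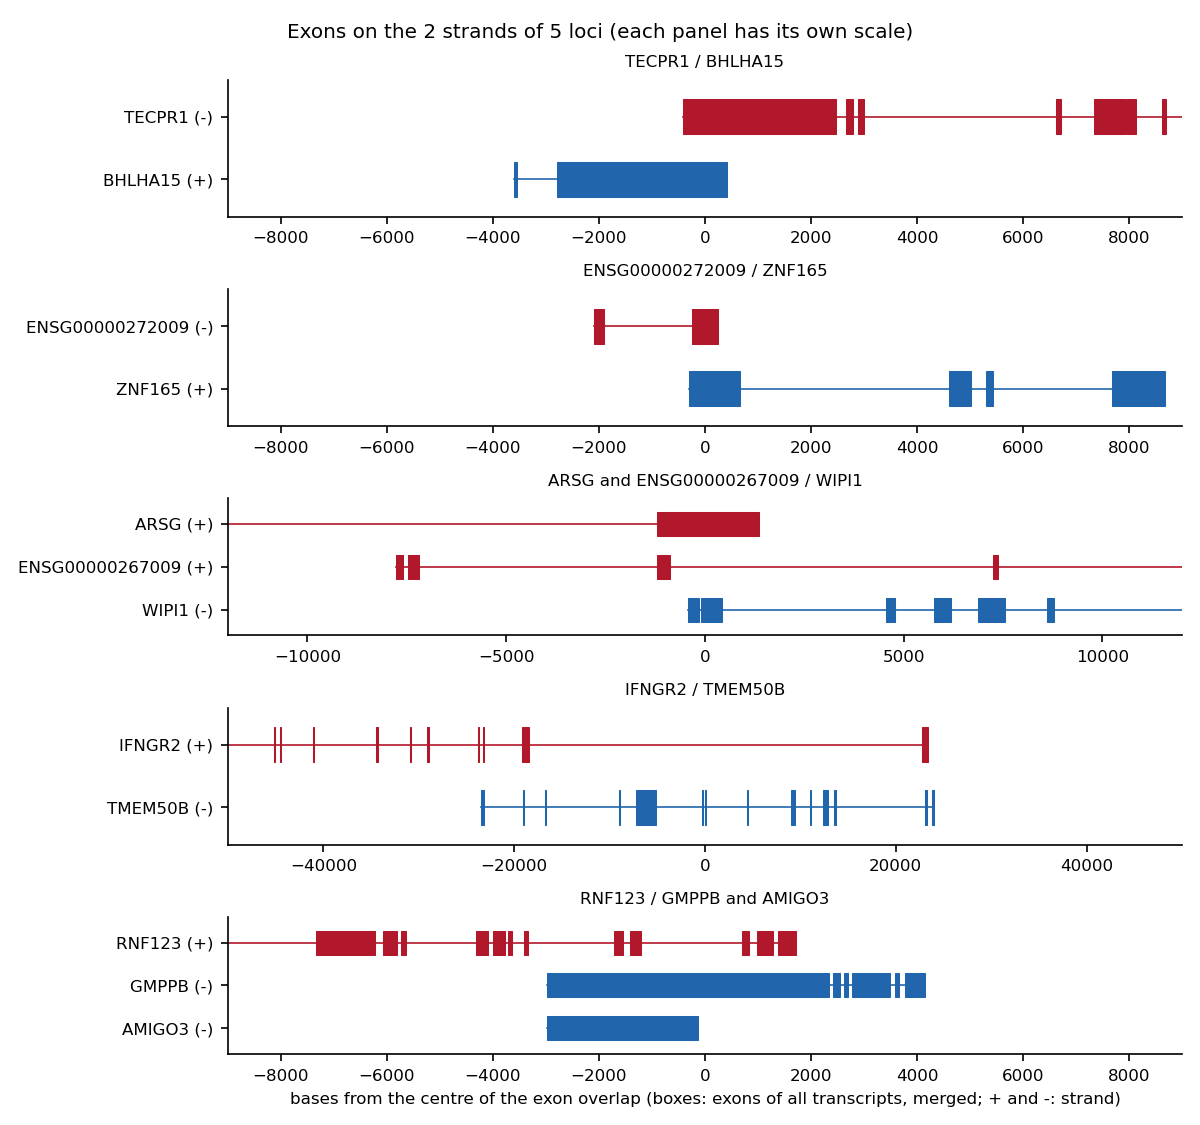
Exons of the features that rise (red) and of the coding genes opposite them (blue) at 5 loci, drawn to scale along the x axis in bases from the centre of the exon overlap, with a scale of its own in each panel. TECPR1 and BHLHA15 meet end to end over 834 bases, while RNF123 and GMPPB share 1166 bases over 5 exons.

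The largest total change was that of TECPR1, opposite the transcription factor gene BHLHA15. BHLHA15 (MIST1) codes for a basic helix-loop-helix factor of secretory cells and is a target of XBP1 in mouse, while TECPR1 itself codes for a protein of autophagosome maturation. TECPR1 had 100.2, 114, 83.3 and 81.8 CPM in the 4 libraries with CPA and synta-66, 31.2, 18.4, 25.4 and 19.4 CPM with CPA, and 4.79, 7.60, 5.94 and 5.57 CPM in untreated cells. All 4 libraries of each treated group lay above those of the group below it, and the lowest CPA library was 2.42-fold above the highest untreated one. Its log2 fold change was 2.01 ± 0.17 (SE) in the second step and 1.96 ± 0.20 in the first. Over both steps it came to 3.98 ± 0.19, a 15.7-fold difference.

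ENSG00000272009 lies opposite the first exon of ZNF165, a SCAN-domain zinc finger gene known for expression in testis. It had 477, 459.5, 460.4 and 380 CPM with CPA and synta-66, 181, 180.0, 159 and 141 CPM with CPA, and 67.0, 57.8, 60.01 and 61.5 CPM in untreated cells. Again no library of one group reached the range of another. The log2 fold change was 1.43 ± 0.09 in the second step and 1.42 ± 0.10 in the first, so that both steps were of the same size on the log2 scale, and the total was 7.21-fold.

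Both ARSG and ENSG00000267009 lie opposite WIPI1, which codes for a phosphoinositide-binding protein of early autophagosomes. ARSG, the gene of a lysosomal sulfatase, had 276, 269.6, 263 and 267 CPM with CPA and synta-66, 127, 121, 137 and 125 CPM with CPA, and 60.2, 67.8, 63.8 and 71.8 CPM in untreated cells. These groups were tight and well apart, with means of 269 CPM with CPA and synta-66, 127 CPM with CPA and 65.9 CPM in untreated cells. The log2 fold change was 1.08 ± 0.09 in the second step and 0.95 ± 0.10 in the first.

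ENSG00000267009, the other feature opposite WIPI1, had far fewer reads, 39 to 97 per library with CPA and synta-66, 25 to 71 with CPA and 12 to 21 in untreated cells. Its levels were 19.9, 18.02, 23.8 and 17.0 CPM with CPA and synta-66, 6.45, 7.91, 9.21 and 15.3 CPM with CPA, and 4.37, 3.60, 5.63 and 3.52 CPM in untreated cells. The groups did not overlap, but CPA replicate 4 lay close to the libraries with synta-66, and the lowest of those was 1.11-fold above it. The log2 fold changes were 1.01 ± 0.28 in the second step and 1.20 ± 0.31 in the first. In 6 of the 12 fits that leave out 1 library one of its calls was lost, with a log2 fold change of 1.11 without untreated replicate 2 and 0.89 without CPA replicate 4 for the first step. For the second step it was 0.86, 0.92 and 0.98 without CPA replicates 1, 2 and 3 and 0.91 without replicate 3 of CPA with synta-66.

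IFNGR2, which codes for a subunit of the interferon gamma receptor, lies opposite TMEM50B, the gene of a membrane protein of the endoplasmic reticulum and Golgi. It had 76.3, 72.1, 69.5 and 74.8 CPM with CPA and synta-66, 39.0, 25.3, 38.5 and 43.2 CPM with CPA, and 9.37, 8.001, 11.9 and 8.20 CPM in untreated cells. The first step was the larger one here. The log2 fold change was 1.00 ± 0.15 in the second step and 1.97 ± 0.18 in the first, and the first step made up 66.4% of the total log2 change, the highest share of the 7 features.

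RNF123 and EML2 changed least from the untreated level in the first step. RNF123, a ubiquitin ligase gene, lies opposite GMPPB, which makes GDP-mannose for glycosylation, and opposite AMIGO3, the gene of a leucine-rich adhesion protein. It had 397, 446, 409 and 361 CPM with CPA and synta-66, 281, 220.4, 253 and 276 CPM with CPA, and 161, 167, 180.3 and 149 CPM in untreated cells. Each step came to 0.65 ± 0.09 on the log2 scale, the smallest of the set, and the second step was 0.58, under the 1.5-fold minimum, without CPA replicate 2.

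EML2, a microtubule-associated protein gene, had 166, 173, 175 and 161 CPM with CPA and synta-66, 86.2, 67.9, 66.1 and 61.7 CPM with CPA, and 34.3, 36.2, 42.2 and 43.9 CPM in untreated cells. Its log2 fold change was larger in the second step, 1.26 ± 0.11, than in the first, 0.85 ± 0.12. The first step thus made up 40.3% of its total log2 change, the lowest share of the 7 features.

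**Figure D2:**
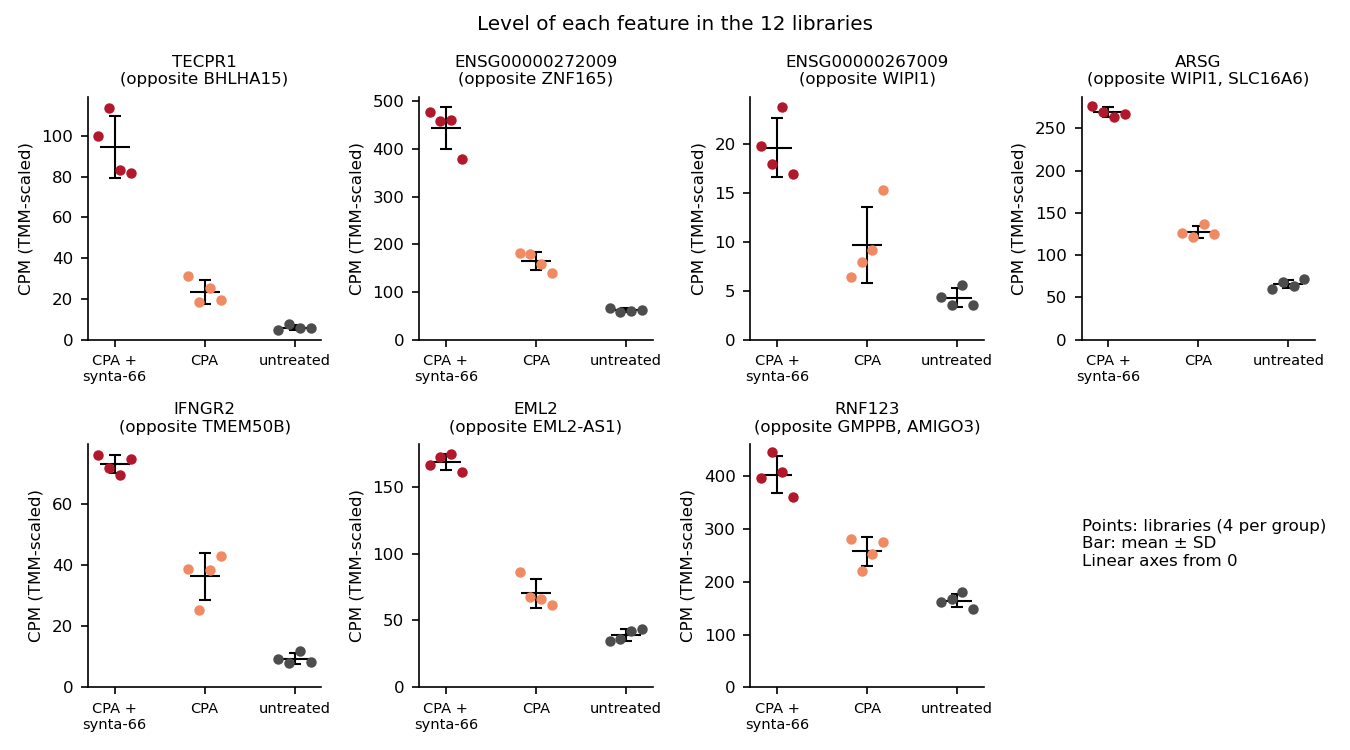
Level of each of the 7 features in CPM (TMM-scaled, linear y axes from 0) in the 4 libraries of each group (points), with the mean and SD (bars). In every panel the libraries with CPA and synta-66 lie above those with CPA, which lie above the untreated ones; ENSG00000267009 has the smallest gap.

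Over the 7 features the median log2 fold change was 1.08 in the second step (range 0.65 to 2.01), 1.20 in the first (range 0.65 to 1.97) and 2.21 over both (range 1.30 to 3.98). The medians over all 14911 features were -0.04 in the second step, -0.01 in the first and -0.06 over both. The first step made up between 40.3% and 66.4% of the total log2 change, with a median of 49.9%. The CPA libraries enter both steps, so the steps are not independent of each other.

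Features were called where edgeR's quasi-likelihood test gave an adjusted p under 0.05 and the change reached 1.5-fold. All 7 features were called higher in both steps, which follows from how they were chosen. Of all tested features, 1.94% were called higher and 2.82% lower with CPA and synta-66 against CPA, 1.8% higher and 1.05% lower with CPA against untreated cells, and 1.66% higher and 1.24% lower with CPA and synta-66 against untreated cells. Only 24 features, or 0.161%, were called higher in both steps, and the 7 are among them. In 5.46% of features every library with CPA and synta-66 lay above every CPA library, in 5.7% every CPA library lay above every untreated library, and in 0.396% both held.

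The other 17 features called higher in both steps set the 7 in their range. The largest totals were those of GHET1, at 1.68 in the second step and 4.47 in the first, and ENSG00000273342, at 1.64 and 4.28. Neither lies opposite a coding gene, and their means over the 12 libraries were 16.5 and 5.65 CPM. MARS1, opposite DDIT3 (the gene of CHOP) and ARHGAP9, changed by 1.85 in the second step and 1.74 in the first, and UQCC6, opposite the chaperone gene HSP90B1, by 0.78 and 2.05. ENSG00000225420, opposite EIF2AK3, the gene of PERK, changed by 1.08 in the second step and 0.98 in the first. Of the 24 features, 15 lay opposite at least 1 coding gene and 13 were themselves coding. Features opposite a coding exon are common, 7206 in all, and the 24 were not compared with all features in either trait. Nearest to the 1.5-fold minimum, which is 0.585 on the log2 scale, DNAJB9 lay just inside with 0.59 in the second step and 0.60 in the first, while ADGRV1 lay just outside with 0.96 and 0.58.

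**Figure D3:**
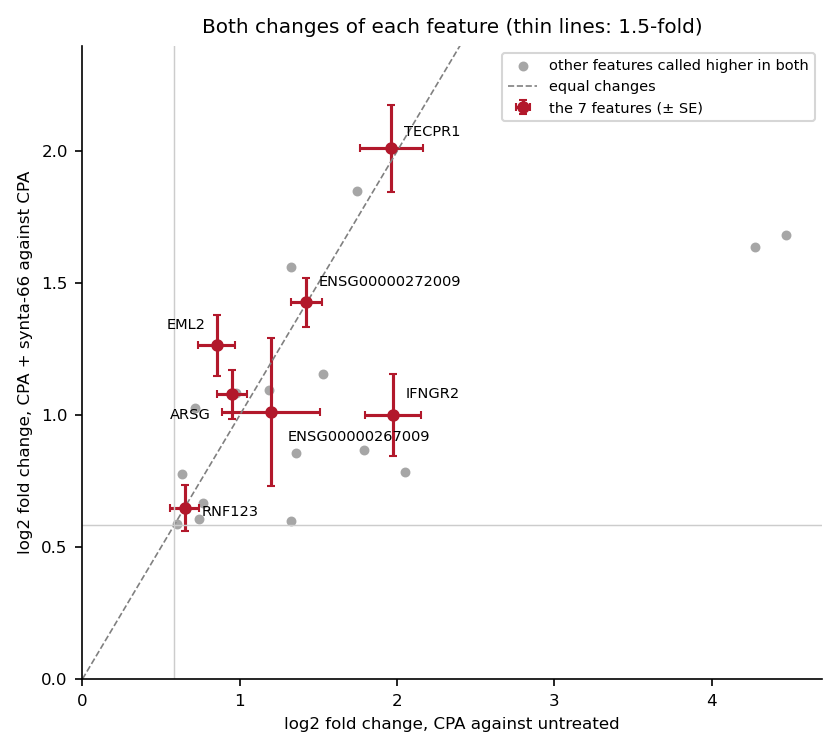
Log2 fold change for CPA against untreated cells (x axis) and for CPA with synta-66 against CPA (y axis) of the 7 features (red, ± SE) and of the 17 other features called higher in both (grey), with thin lines at 1.5-fold and a dashed line of equal changes. TECPR1 lies at 1.96 and 2.01, IFNGR2 lies below the line of equal changes at 1.97 and 1.00, and EML2 above it at 0.85 and 1.26.

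Levels per kilobase of exon, which allow features of different length to be set side by side, put ENSG00000272009 first in every group. It had 648 CPM per kilobase with CPA and synta-66, 241 with CPA and 89.8 in untreated cells. RNF123 followed with 54.4, 34.7 and 22.2 CPM per kilobase in the same order of groups, then ARSG with 40.9, 19.3 and 10.0. The scale divides by all exonic bases, whether or not reads cover them. TECPR1 was lowest in untreated cells with 0.660 CPM per kilobase, and had 10.5 with CPA and synta-66 and 2.61 with CPA. ENSG00000267009 had 10.6, 5.22 and 2.30 CPM per kilobase, close to TECPR1 in the group with CPA and synta-66.

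The counts on the opposite strand were not used in choosing the features, though they come from the same libraries. TMEM50B, the best measured of them, had another order of groups. Its own feature had 106, 116, 111 and 97.9 CPM with CPA and synta-66, 167, 157, 169 and 189 CPM with CPA, and 128, 141, 133 and 125 CPM in untreated cells. The libraries with CPA and synta-66 were the lowest and those with CPA the highest, with no overlap between groups. TMEM50B fell with CPA and synta-66 against CPA by 0.66 ± 0.10 on the log2 scale (edgeR, adjusted p = 4.3e-06), and this call held in every alternative tried. For CPA against untreated cells its log2 fold change was 0.37 ± 0.10 (edgeR, adjusted p = 0.0136), which is under the 1.5-fold minimum. For CPA with synta-66 against untreated cells it was -0.29 ± 0.10 (edgeR, adjusted p = 0.0954). Over the same steps IFNGR2, on the other strand, had log2 fold changes of 1.00 and 1.97, and the difference between the strands was not tested because IFNGR2 was chosen for its rises.

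EML2-AS1 rose with CPA but did not pass the test in the second step. It averaged 24.7 ± 7.25 CPM with CPA and synta-66, 24.2 ± 4.12 CPM with CPA and 14.7 ± 1.95 CPM in untreated cells (SD, n = 4 each). The log2 fold change was 0.05 ± 0.21 in the second step (edgeR, adjusted p = 0.937), 0.72 ± 0.22 in the first (edgeR, adjusted p = 0.044) and 0.77 ± 0.22 over both (edgeR, adjusted p = 0.0312). Neither call was stable. The call in the first step was lost without any 1 of 8 libraries, namely each untreated replicate, CPA replicates 1, 2 and 4 and replicate 4 with synta-66, where the adjusted p lay between 0.0505 and 0.157. The call over both steps was lost without any 1 of 6 libraries, namely untreated replicates 1, 2 and 4 and replicates 2, 3 and 4 with synta-66, where it lay between 0.0530 and 0.147.

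GMPPB had 62.9, 81.5, 85.0 and 63.5 CPM with CPA and synta-66, 75.1, 61.4, 65.3 and 69.1 CPM with CPA, and 71.8, 69.6, 71.3 and 53.3 CPM in untreated cells. The groups overlapped throughout, and the log2 fold change was 0.13 ± 0.13 for CPA with synta-66 against CPA (edgeR, adjusted p = 0.671) and 0.02 ± 0.13 for CPA against untreated cells (edgeR, adjusted p = 0.969). For CPA with synta-66 against untreated cells it was 0.15 ± 0.13 (edgeR, adjusted p = 0.675).

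The own features of the remaining genes held few reads. SLC16A6, of the monocarboxylate transporter family, averaged 3.02 ± 1.12 CPM with CPA and synta-66, 5.05 ± 0.39 CPM with CPA and 3.85 ± 2.13 CPM in untreated cells, with 3 to 24 reads per library, and was not called in any comparison. WIPI1 had 1 to 15 reads per library and ZNF165 0 to 14, and neither was called (edgeR, adjusted p from 0.224 to 1.0). BHLHA15 had 0 to 5 reads per library and AMIGO3 0 or 1, which is under the filter, so no change at their own features was detectable at this depth. Adjusted p-values for WIPI1 were 0.788 in the second step and 0.972 in the first.

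**Figure D4:**
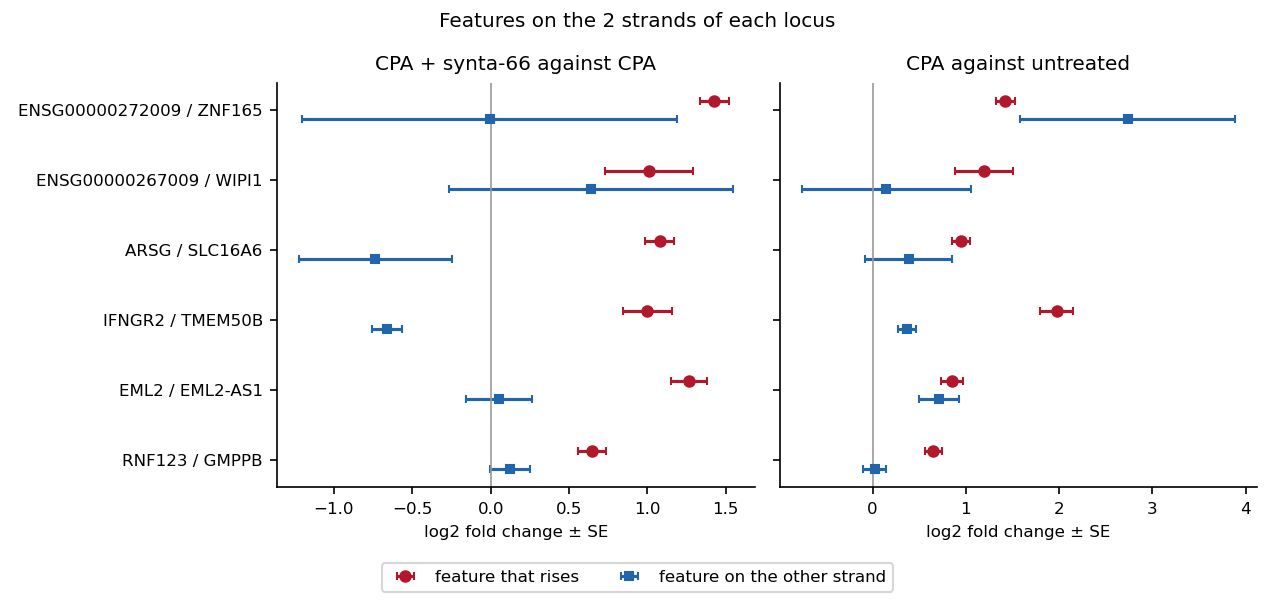
Log2 fold change (± SE) of each feature that rises (red circles) and of the feature on the other strand of the same locus (blue squares), for CPA with synta-66 against CPA (left) and CPA against untreated cells (right). TMEM50B lies at -0.66 in the left panel where IFNGR2 lies at 1.00, and the widest bars are those of ZNF165 and WIPI1, which had few reads.

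Within 50 kb of one of them, on either strand, 23 other features passed the filter. With CPA and synta-66 against CPA, 2 of the 23 fell and 0 rose by edgeR (unadjusted p under 0.05 for 1 higher and 2 lower, DESeq2 1 higher and 2 lower), where 2.82% of all features fell and 1.94% rose, and the median log2 fold change was -0.17. The 2 were BAIAP2L1, near TECPR1, at -0.82 (adjusted p = 0.0337) and FAM20A, near ENSG00000267009, at -0.76 (adjusted p = 0.000258). With CPA against untreated cells 0 of 23 were called by edgeR or by DESeq2 (unadjusted p under 0.05 for 4 higher and 2 lower), and the median was 0.26. Of all features, 1.8% rose and 1.05% fell in that comparison. BRI3, which starts 147 bases from TECPR1, was not called in any comparison. With CPA and synta-66 against untreated cells 1 of 23 rose, beside 1.66% higher and 1.24% lower of all features. It was the pseudogene RPS5P3 near IFNGR2 (edgeR, adjusted p = 0.0122). RPS5P3 had few reads, 8 to 24 per library with CPA and synta-66 and 1 to 5 in untreated cells.

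The 7 features followed each other closely across the 12 libraries, as features chosen for the same order of groups must. Pearson's r of log2(CPM + 1) lay between 0.90 and 0.99 over the 21 pairs, with a median of 0.97, and was highest for TECPR1 with ARSG and lowest for ENSG00000267009 with EML2. All pairs share libraries and their depth. Deviations from the group means were much less alike, with r between -0.46 and 0.69 and a median of 0.19. The highest value there was that of IFNGR2 with RNF123, both low in CPA replicate 2.

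Of 6350 features with a mean of at least 5 CPM, those most like the mean profile of the 7 were MARS1 (r = 0.997 over 12 libraries), TICAM2-AS1 (r = 0.993), ENSG00000255114 (r = 0.992), ENSG00000225420 (r = 0.992), ATP6V1C2 (r = 0.988), SNX22 (r = 0.982), PPP1CA (r = 0.981) and ENSG00000262831 (r = 0.977). They share the libraries and the order of groups with the 7, and 68 features reached an r over 0.9. Opposite them lie DDIT3 and ARHGAP9 for MARS1, TMED7 and TICAM2 for TICAM2-AS1, HYOU1 for ENSG00000255114, EIF2AK3 for ENSG00000225420, PDIA6 for ATP6V1C2, PPIB for SNX22, P4HB for ENSG00000262831, and CARNS1, RAD9A and TBC1D10C for PPP1CA. As background, HYOU1, PDIA6, PPIB and P4HB code for folding factors of the endoplasmic reticulum and TMED7 for a cargo receptor of early secretion. MARS1 averaged 2574 ± 162 CPM with CPA and synta-66, 715 ± 54.5 CPM with CPA and 213 ± 8.42 CPM in untreated cells (SD, n = 4 each). ATP6V1C2 averaged 5068 ± 83.7 CPM with CPA and synta-66, 4009 ± 149 CPM with CPA and 3022 ± 186 CPM in untreated cells, so that a like profile went with a much smaller change.

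**Figure D5:**
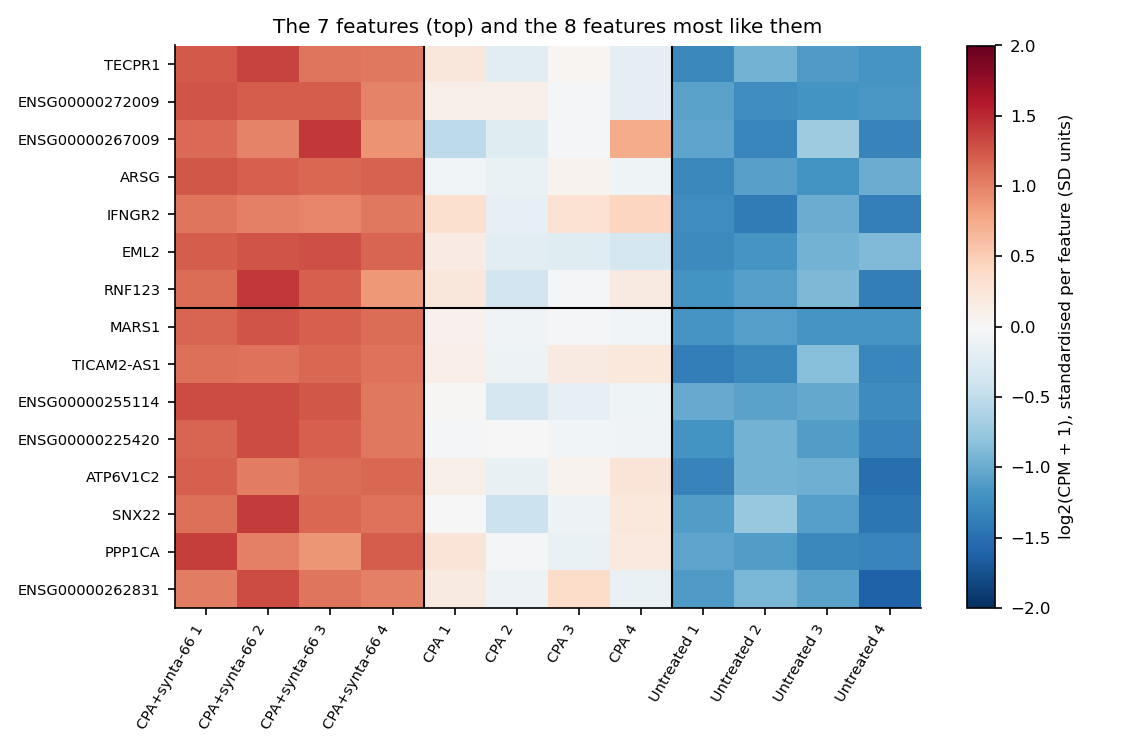
Level of the 7 features (upper block) and of the 8 features most like them (lower block) in the 12 libraries, as log2(CPM + 1) standardised per feature in SD units, with libraries in columns by group. Colours step from red with CPA and synta-66 through pale with CPA to blue in untreated cells; ENSG00000267009 varies most within the CPA group.

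Genes of the unfolded protein response were read at their own features. Where a tested feature lay opposite them and opposite no other coding gene, they were also read there. Of 21 tested targets of XBP1 and ATF6 read at their own features, 7 rose and 0 fell with CPA and synta-66 against CPA, and 2 rose and 0 fell with CPA against untreated cells. Of all features, 1.94% rose and 2.82% fell in the second step, and 1.8% rose and 1.05% fell in the first. The median log2 fold change was 0.63 in the second step, against -0.04 for all features, and 0.06 in the first, against -0.01. HSPA5, the main chaperone of the endoplasmic reticulum, averaged 34.1 ± 8.77 CPM with CPA and synta-66, 9.84 ± 5.70 CPM with CPA and 8.83 ± 3.40 CPM in untreated cells (SD, n = 4 each). Read at its own feature, with the limit of strand given above, it rose by 1.80 ± 0.28 in the second step (edgeR, adjusted p = 1.4e-05), and its first step was 0.14 ± 0.30 (adjusted p = 0.9). The chaperone HSP90B1 rose by 0.87 ± 0.16 in the second step, the disulfide isomerase PDIA4 by 2.08 ± 0.37, the co-chaperone DNAJB11 by 1.20 ± 0.27 and the calcium-binding chaperone CALR by 0.84 ± 0.18. HYOU1 had the largest called second step of the list, 2.12 ± 0.54, and its call was lost in 2 of 20 alternatives. In the first step the 2 called were DNAJB9, a co-chaperone, at 0.60 ± 0.18 and HERPUD1, a degradation factor, with 2.08 CPM with CPA and 0.0520 CPM in untreated cells. The HERPUD1 call was lost in 1 of 20 alternatives, DESeq2. The DNAJB9 call in the first step was lost without any 1 of 9 libraries, all but untreated replicates 2 and 3 and CPA replicate 2, with adjusted p of 0.0514 to 0.177. In the second step it was lost without CPA replicates 1, 2 or 3 or replicates 2, 3 or 4 with synta-66, with adjusted p of 0.0531 to 0.118. Over 20 alternatives the list held 5 to 7 calls in the second step and 1 or 2 in the first.

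Of the same targets, 9 could be read at an opposite feature. With CPA and synta-66 against CPA 2 of 9 rose and 0 fell, with CPA against untreated cells 3 of 9 rose and 0 fell, and 7 of 9 rose with CPA and synta-66 against untreated cells. Over the 3991 genes that could be read this way 2.68% rose and 4.36% fell in the second step and 3.41% rose and 1.3% fell in the first. With CPA and synta-66 against untreated cells 2.86% of them rose and 1.28% fell. At their own features 9 of 21 targets rose and 0 fell in that comparison, beside 1.66% and 1.24% of all features. The feature opposite HSP90B1 rose by 0.78 ± 0.13 in the second step and 2.05 ± 0.14 in the first, and that opposite HYOU1, a chaperone of the HSP70 family, by 1.03 ± 0.07 and 0.72 ± 0.07. That opposite SYVN1, a ubiquitin ligase of the degradation pathway, rose by 1.05 ± 0.20 in the first step.

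Targets of ATF4 and CHOP include amino acid transporter and transcription factor genes. Of 17 tested at their own features, 4 rose and 0 fell with CPA and synta-66 against CPA, beside 1.94% higher and 2.82% lower of all features, and 0 of 17 were called with CPA against untreated cells by edgeR or by DESeq2, with 0 at an unadjusted p under 0.05. Of all features, 1.8% rose and 1.05% fell with CPA against untreated cells. Over 20 alternatives the second step held 2 to 4 calls. The transcription factor gene CEBPB rose by 1.44 ± 0.26 and the serine metabolism gene SHMT2 by 1.65 ± 0.32 in the second step. STC2 rose by 1.09 ± 0.31 and SLC3A2 by 1.04 ± 0.32, and each of these calls was lost in 5 of 20 alternatives. Of 5 read at an opposite feature, 2 rose in the second step, beside 2.68% of the 3991 genes read this way, and 1 rose and 1 fell in the first, beside 3.41% and 1.3%. The feature opposite SLC7A11, the cystine transporter gene, averaged 367 CPM with CPA and synta-66, 125 CPM with CPA and 238 CPM in untreated cells, which is another order of groups than in the 7 features.

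Autophagy genes are the group of WIPI1 and TECPR1. Of 27 tested at their own features, 0 rose and 2 fell with CPA and synta-66 against CPA by edgeR (unadjusted p under 0.05 for 1 higher and 4 lower, DESeq2 0 higher and 2 lower), beside 1.94% higher and 2.82% lower of all features. With CPA against untreated cells 1 rose, beside 1.8% of all features. The 2 that fell were GABARAPL2, an ATG8 family gene, and TECPR2, the relative of TECPR1, at -1.48 ± 0.39 (adjusted p = 0.01). GABARAPL2, also the 1 that rose in the first step, lost its second call without CPA replicates 1 or 2 or replicates 2 or 3 with synta-66 (adjusted p of 0.0545 to 0.0852) and its first without untreated replicates 1 or 4 or CPA replicate 2 (0.0529 to 0.0636). TECPR2 averaged 3.18 CPM with CPA and synta-66, 8.81 CPM with CPA and 5.86 CPM in untreated cells. Of 15 read at an opposite feature, 0 were called in either step by edgeR or by DESeq2, with 6 higher and 1 lower at an unadjusted p under 0.05 in the second step and 3 higher and 0 lower in the first. Over the 3991 genes so read, 2.68% rose and 4.36% fell in the second step and 3.41% and 1.3% in the first. The median log2 fold change of the 15 autophagy genes was 0.04 in the second step and 0.03 in the first. With CPA and synta-66 against untreated cells 1 of the 15 rose and 0 fell, beside 2.86% and 1.28% of all genes so read. It was the feature opposite GABARAPL1, at 1.17 ± 0.32 (edgeR, adjusted p = 0.0217). This call was lost in 4 of 20 alternatives.

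Genes of mannose metabolism and of the N-glycan precursor, the group of GMPPB, were read in the same ways. PMM2, which makes mannose 1-phosphate, was the 1 of 20 tested at their own features that rose with CPA and synta-66 against CPA, by 0.74 ± 0.16 (edgeR, adjusted p = 0.00158), where 1.94% of all features rose. With CPA against untreated cells 0 of 20 were called by edgeR or by DESeq2 (unadjusted p under 0.05 for 2 higher and 0 lower), beside 1.8% higher and 1.05% lower of all features. Of 11 read at an opposite feature, 2 rose with CPA and synta-66 against untreated cells, beside 2.86% of the 3991 genes read this way. They were the feature opposite the mannosyltransferase gene ALG12, at 0.63, and that opposite PGM3, at 0.71. At their own features ALG12 was at -0.01 and PGM3 at 0.36, and neither was called. In either step 0 of the 11 were called by edgeR or by DESeq2 (unadjusted p under 0.05 for 5 higher and 1 lower in each step). Over the 3991 genes 2.68% rose and 4.36% fell in the second step and 3.41% and 1.3% in the first.

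Relatives of the genes at these loci were read in the same ways. Of 14 tested at their own features, 0 rose by edgeR or by DESeq2 and 1 fell, TECPR2, with CPA and synta-66 against CPA (unadjusted p under 0.05 for 1 higher and 2 lower), beside 1.94% higher and 2.82% lower of all features. Of these 14, 0 were called with CPA against untreated cells by edgeR or by DESeq2, with 0 at an unadjusted p under 0.05. Of all features, 1.8% rose and 1.05% fell in that comparison. Of 9 read at an opposite feature, 0 were called in either step by edgeR (unadjusted p under 0.05 for 1 higher and 2 lower in the second step and 1 higher and 1 lower in the first), and DESeq2 called 1 higher in the second step. Over the 3991 genes so read, 2.68% rose and 4.36% fell in the second step and 3.41% and 1.3% in the first. TMEM50A, the relative of TMEM50B, was read at RHCE and averaged 31.4 CPM with CPA and synta-66, 35.2 CPM with CPA and 29.8 CPM in untreated cells. AMIGO2, the relative of AMIGO3, was read at PCED1B with 83.9, 73.1 and 91.3 CPM in the same order of groups, and EML4 at EML4-AS1 with 74.8, 75.1 and 79.5 CPM.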

How the data were processed

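Reads were aligned with STAR 2.5.2a to GRCh38 with the Ensembl 84 annotation and counted per gene with HTSeq 0.6.1p1 as a stranded library, per the labels' protocols. Trimmomatic is given as 0.32 by those protocols and as 0.36 by the submitters' processing notes, and no source used here names the library kit, so whether the strand setting fits it was not tested. The values deposited are raw read counts per gene, which the authors did not normalize. Reads in no feature, which were 90.5% to 96.3% of uniquely aligned reads, and ambiguous or non-unique reads were left out of library sizes.

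All 12 libraries were fitted together with edgeR 4.0.16 in R 4.3.3 (TMM, quasi-likelihood test, group as the only term), over 14911 features with at least 5 reads in 2 libraries of a group, with Benjamini-Hochberg adjustment over all of them. The mean of each group rests on 4 libraries. CPM were computed with library sizes scaled by TMM. The fit and its calls were tried on simulated counts, with 50 features changed at each size. At 1.5-fold, 2 were recovered for CPA against untreated cells, 3 for the second step and 8 over both. At 2-fold these were 10, 9 and 15, and at 4-fold 26, 32 and 31. False calls numbered 2, 1 and 3. A small change that was not called may thus have been missed. Alternatives were DESeq2 1.42.0, other scalings, filters and fits, a block for the replicate number, and fits without each single library.

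Overlaps of at least 30 bases were taken from GENCODE 44, which held 56558 of the 60675 gene IDs, and gene names come from it. A coding gene was read at the tested feature with the most reads opposite its exons, which gave 3991 genes. Features opposite more than 1 coding gene were left out of this. MARS1, opposite DDIT3 and ARHGAP9, and HRG-AS1, opposite DNAJB11 and other genes, were thus not used. The features and the lists (targets of XBP1 and ATF6, of ATF4 and CHOP, autophagy, mannose and N-glycan precursor, relatives) were chosen with earlier results of these data known. Members were left out of the list counts. Named are the 7 features, the genes opposite them, features within 50 kb, up to 6 called members of each list per comparison, relatives, and the 8 features most like the mean profile. UQCC6, ADGRV1, BRI3, GHET1 and ENSG00000273342 were picked after their values were seen.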

Additional observations from a re-analysis of the deposited data

Results flagged for a closer look

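In groups of 4 libraries, 39 in all over the features of both strands, a library was looked for whose gap to the nearest other took up most of the range of its group, past the critical value of Dixon's test. Such gaps arise by chance in about 1 group of 20, and 2 were found. The own feature of WIPI1 had 6.09 CPM in replicate 1 of CPA with synta-66, where the next library had 0.901 CPM, and that library is one of those rich in non-unique alignments. The own feature of GMPPB had 53.3 CPM in untreated replicate 4, where the next library had 69.6 CPM. None of the 7 features that rise was picked out in this way.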

How the results depend on the processing

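Counts of calls stayed within 1.5 times those reported under every alternative with 3 exceptions: without a minimum fold, 261 features fell with CPA against untreated cells and 515 rose with CPA and synta-66 against CPA, and without the 3 libraries rich in non-unique alignments (chosen after seeing the data) 102 fell with CPA and synta-66 against untreated cells. That last fit also put the total log2 change at 2.45 for ENSG00000267009 and 1.44 for RNF123, and turned WIPI1 to -0.76 against CPA and -0.26 against untreated cells. Leaving out 1 library gave 244 to 312 higher and 323 to 472 lower calls (CPA with synta-66 against CPA), 218 to 281 and 125 to 160 (CPA against untreated) and 205 to 254 and 130 to 177 (CPA with synta-66 against untreated). The uncalled own features changed sign in it: WIPI1 spanned -0.91 to 1.14 (CPA with synta-66 against CPA), -0.35 to 0.49 (CPA against untreated) and -0.77 to 1.13 (CPA with synta-66 against untreated), GMPPB -0.0689 to 0.0707 for CPA against untreated cells, and, with CPA and synta-66 against CPA, EML2-AS1 -0.0517 to 0.23 and ZNF165 -0.49 to 0.58. ZNF165 there was 0.00798 with upper-quartile scaling, 0.0097 in a fit of the 2 groups alone and 0.78 without the 3 libraries; the causes were not tested. With the replicate number as a block it was 0.055 (replicate block), and the block gave 292 higher and 431 lower calls (CPA with synta-66 against CPA), 283 and 158 (CPA against untreated) and 236 and 182 (CPA with synta-66 against untreated). The numbers were taken not to pair the samples: over 12 same-numbered pairs r lay between -0.07 and 0.14, and 3 of 12 libraries correlated best with their own number. With 25 to 71 reads for ENSG00000267009 in a CPA library, and up to 15 for WIPI1, counting limits what could be told apart.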
